A study of Homo sapiens with 134 samples.

Results

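The 32 genes described here are a set transcribed at the border of G1 and S phase under the control of E2F transcription factors. Each was read from 1 probe of a whole-genome expression array, the probe with the highest mean log2 signal over all arrays among those annotated to its symbol, and all 32 probes were among the 24350 of 48701 probes whose mean lay above the median of the array. The genes came from a list of symbols drawn up with earlier results of these data known, and no difference between samples entered the choice of probe.

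The cells were HBEC3KT (also written HEBC3KT), a human bronchial epithelial line derived from normal bronchus and immortalized by overexpression of CDK4 and the telomerase catalytic subunit, so every group carried a CDK4 transgene. They were irradiated with 56Fe ions at 0.5 or 1 Gy, with 28Si ions at 0.5 or 1 Gy, or with γ-rays at 1 or 3 Gy (the labels call the last arm x-ray), and RNA was taken 1, 4, 12 and 24 h later. The controls were mock samples taken at the same 4 times, and reference samples taken before irradiation. The radiations were applied in 5 campaigns named 08A, 08C, 09A, 09B and 09C, which give 9 runs of 1 radiation in 1 campaign, 3 for each radiation, and technical repeats of 134 arrays were averaged to 71 irradiated, 36 mock and 9 reference samples. Median raw bead signals of the arrays ranged from 45.8 to 115.8. Of the markers of a basal airway epithelial cell, KRT5, KRT14, ITGB4, LAMB3 and CDH3 lay at the 98th to 99th percentile of all probes, ITGA6 at the 69.4th and DSG3 at the 93rd. The markers of ciliated and secretory cells, fibroblasts, leukocytes and endothelium lay between the 4.17th (LUM) and 73.7th (DNAI1) percentile, apart from the leukocyte markers CD14 at the 85.3rd and CD68 at the 96.4th.

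The activators E2F1, E2F2 and E2F3 bind DNA with a DP partner. In G1 they are held by RB and its relatives, and cyclin D with CDK4 or CDK6, then cyclin E with CDK2, phosphorylate RB and free E2F to transcribe the enzymes of nucleotide supply, replication and histone assembly. The CDK inhibitor p21, encoded by CDKN1A and induced by p53 after DNA damage, blocks that phosphorylation.

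The sequence read by E2F was looked for in the promoters, since the genes are grouped by their control through it. RefSeq promoters on GRCh38.p14, from 250 bases before to 50 bases after each start site, were found for 28 of the 32 genes (40 promoters, several genes having more than 1 start). The words TTTCCCGC, TTTCGCGC, TTTGCCGC and TTTGGCGC were searched on both strands. At least 1 word stood in a promoter of 15 of the 28 genes (53.6%), against 3.99% of all 27305 genes with a promoter in the table and 6.06% of the 11108 whose symbols were among the probes tested. A match is a description of the letters and not evidence of binding. The 100 bases upstream of the start are shown for 7 genes, in the sense of transcription, with the words in capitals. All 7 carry a word there, so they do not stand for the whole set. Genes without a word, such as RRM2 and FBXO5, are not shown. E2F1 (chr20:33686386-33686485, minus strand) is the activator itself, and RBL1 (chr20:37095998-37096097, minus) a signature gene. DTL (chr1:212035648-212035747, plus) had the largest mean fall in mock cells in the processing used here. UHRF1 (chr19:4909401-4909500, plus) and UNG (chr12:109098072-109098171, plus) differed between doses in the processing used here, but in only 5 and 6 of 15 alternatives to it. UNG is shown at its second start, as its first had no word. HELLS (chr10:94545688-94545787, plus) has a word at the start site and another further up. CDCA7 (chr2:173354772-173354871, plus) is the gene that changed after radiation in the processing used here, and in 7 of 21 alternatives.
E2F1: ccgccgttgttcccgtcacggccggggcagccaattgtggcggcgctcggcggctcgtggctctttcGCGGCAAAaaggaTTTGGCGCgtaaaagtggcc
RBL1: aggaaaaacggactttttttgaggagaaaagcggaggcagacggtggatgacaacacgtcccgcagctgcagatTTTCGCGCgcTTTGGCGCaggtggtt
DTL: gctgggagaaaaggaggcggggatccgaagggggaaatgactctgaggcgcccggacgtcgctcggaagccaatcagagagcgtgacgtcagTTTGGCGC
UHRF1: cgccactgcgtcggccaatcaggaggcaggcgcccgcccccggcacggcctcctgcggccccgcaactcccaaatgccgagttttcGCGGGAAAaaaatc
HELLS: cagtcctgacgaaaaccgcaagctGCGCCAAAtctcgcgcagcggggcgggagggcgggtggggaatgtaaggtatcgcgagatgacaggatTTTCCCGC
CDCA7: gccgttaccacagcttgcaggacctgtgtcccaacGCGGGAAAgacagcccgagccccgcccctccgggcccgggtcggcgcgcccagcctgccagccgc
UNG: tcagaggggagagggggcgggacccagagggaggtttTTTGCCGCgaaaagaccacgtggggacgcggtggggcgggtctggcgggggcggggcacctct

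In mock cells, with no radiation given, the 32 genes stood highest at 12 h and lowest at 24 h by their median, averaged over the runs. That median log2 signal, taken within each run and then averaged over the 9 runs, was 9.15 ± 0.62 before irradiation, 9.34 ± 0.52 at 1 h, 9.68 ± 0.22 at 4 h, 9.80 ± 0.27 at 12 h and 8.92 ± 0.72 at 24 h (SD, n = 9). The highest of the 4 means was that at 12 h for 25 of the 32 genes, and 7, E2F2, E2F3, CCNE1, CCNE2, CDC25A, SLBP and CASP8AP2, had it at 4 h. Of the 4 mock times 24 h had the lowest mean for 27 genes. Single runs differed in this. The median of the genes was higher at 24 h than at 1 h in 56Fe 08C (9.59 against 9.41) and γ-ray 08C (9.65 against 9.32). The same held in 56Fe 09C (8.59 against 8.17) and 28Si 09C (9.42 against 9.10). It was lower at 24 h than at 1 h in 56Fe 08A, 28Si 09A, 28Si 09B, γ-ray 09A and γ-ray 09C. Over the 4 mock times 29 of the 32 genes changed (limma F test with run as a block, Benjamini-Hochberg adjusted p under 0.05), against 22% of all probes tested. The exceptions were MYBL2 (adjusted p = 0.0846), DUT (adjusted p = 0.206) and TK1. In whole cultures, fewer cells in S phase and less RNA of these genes per cell cannot be told apart.

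The runs did not start from the same level. Before irradiation the median of the 32 genes was 7.70 in the 56Fe run of 09C and between 8.88 and 9.82 in the other 8 runs. That run climbed to 8.17 at 1 h, 9.30 at 4 h and 9.93 at 12 h. The γ-ray run of 09C took the other course, with 9.86 at 1 h, 9.63 at 4 h, 9.13 at 12 h and 7.39 at 24 h, the lowest value of any mock sample. The 28Si run of the same campaign had 9.10, 9.79, 9.87 and 9.42 at those times.

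**Figure D1:**
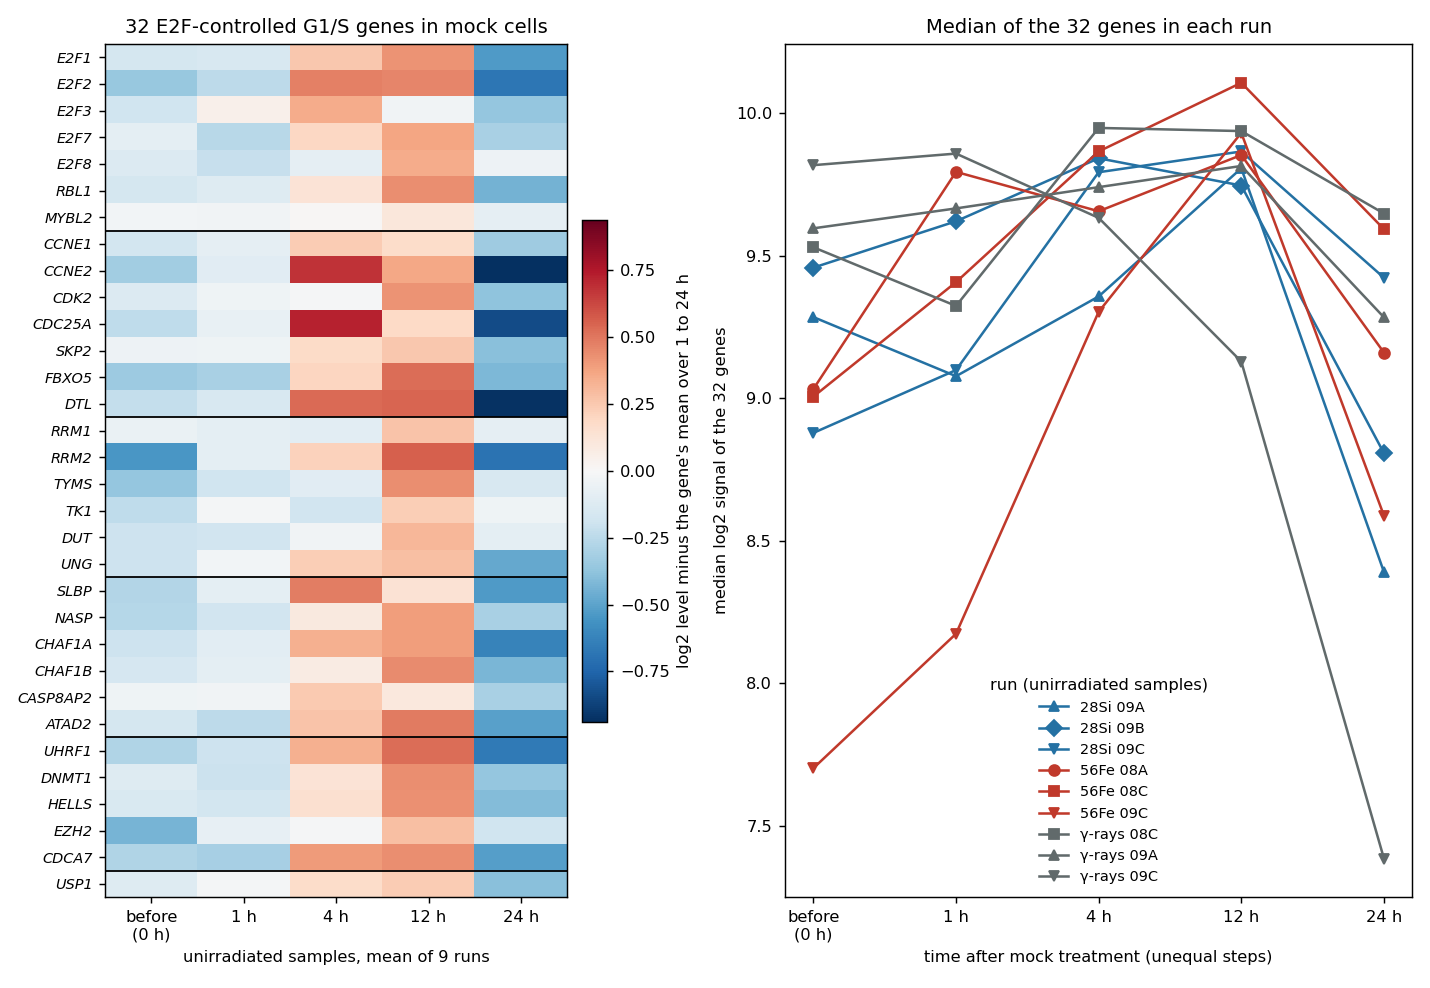
Left, log2 level of each gene in mock samples minus the gene's own mean over 1 to 24 h, averaged over 9 runs, with the sample before irradiation in the first column; black lines part the groups of genes by role. Right, the median log2 signal of the 32 genes in each run (colour for the radiation of the run, symbol for the campaign; all samples plotted are unirradiated). Of the 4 mock times 24 h has the lowest mean over the runs for 27 genes, and the γ-ray run of 09C falls from 1 h on.

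Between 12 and 24 h 30 of the 32 genes fell in mock cells and none rose (limma, run as a block, adjusted p under 0.05), against 7.04% of all probes that fell. The median difference, 24 h minus 12 h, was -0.78 on the log2 scale over the 32 genes and 0.0012 over all probes. The 2 genes that did not pass were DUT (difference of -0.40, adjusted p = 0.181) and TK1 (difference of -0.27, adjusted p = 0.56). All 32 means lay below 0, and 24 genes were lower at 24 h in each of the 9 runs. Of the other probes of these genes 9 were above the median signal, and all 9 differences lay below 0. They ranged from -0.70 for SKP2 to -0.02 for UNG, with CDCA7 at -0.20. Scaling each array to a common median, in place of quantile normalization, left 9 of the 32 genes past the threshold, with all 32 differences still below 0. The share of all probes that fell with that scaling is not given here. The 3 runs of a radiation came from separate campaigns, but whether runs of the same campaign shared a culture is not given in the sources used here. The p-values therefore measure only how differently these runs changed over the times, their levels being taken out by the block.

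The cyclins, kinase and ubiquitin ligase genes had the widest falls, with all 7 past the threshold and a median difference of -0.95. DTL, which encodes the receptor that directs a CUL4 ubiquitin ligase to the licensing factor CDT1, led the set in the processing used here. The order depended on the processing. Over 16 alternatives the lowest difference reached -1.70 for DTL, -2.18 for E2F2 and -2.05 for CCNE2. The log2 signal of DTL at 24 h had a lowest value of 6.81, a median of 9.24 and a highest of 10.50, against 9.71, 10.80 and 11.10 at 12 h. The ranges overlapped, but DTL was lower at 24 h in 9 of 9 runs, by -1.47 ± 0.90 (SD, n = 9; adjusted p = 0.00281). CCNE2, which encodes cyclin E2, stood at 6.54, 7.03 and 8.68 (lowest, median, highest) at 24 h, against 7.41, 8.71 and 9.38 at 12 h. Its difference was -1.30 ± 0.69 (adjusted p = 0.00122), the second in size. CDC25A, the phosphatase that removes the inhibitory phosphate from CDK2, ranged from 7.32 to 8.99 with a median of 7.92 at 24 h, against 8.08 to 9.42 with a median of 9.10 at 12 h. It fell by 1.03 on the log2 scale (SD 0.54; adjusted p = 0.000905), also in all 9 runs. FBXO5, which encodes the inhibitor of the anaphase-promoting complex EMI1, differed by -0.95 ± 0.35, CDK2 by -0.79 ± 0.34, SKP2, the F-box protein that marks p27 for degradation, by -0.65 ± 0.36, and CCNE1, cyclin E1, by -0.50 ± 0.21 (SD, n = 9), each lower in 9 of 9 runs.

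Among the E2F factors and their partners all 7 genes passed the test, with differences between -1.14 for E2F2 and -0.19 for MYBL2. E2F1 had 6.26, 7.68 and 8.64 at 24 h (lowest, median, highest), against 7.35, 8.79 and 9.14 at 12 h, and differed by -0.96 ± 0.62 (SD, n = 9; adjusted p = 0.00308). E2F2, an activator like E2F1, had 6.12, 6.63 and 7.48 at 24 h, against 6.92, 8.08 and 8.71 at 12 h (adjusted p = 0.000635). RBL1, which encodes the RB relative p107, had 6.54, 7.15 and 7.92 at 24 h, against 7.53, 8.17 and 8.63 at 12 h. Its difference of -0.88 ± 0.33 (adjusted p = 0.000479) was seen in 9 of 9 runs. The repressors E2F7 and E2F8 differed by -0.67 ± 0.48 and -0.40 ± 0.17. E2F3, the remaining activator, differed by -0.33 ± 0.24, lower in 8 of 9 runs, and MYBL2, the B-MYB factor of the G2 programme, by -0.19 ± 0.11 (adjusted p = 0.0302). MYBL2 lay between 6.14 and 6.59 at 24 h, against 6.43 to 6.74 at 12 h, close to the median of all probes (6.23).

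The nucleotide genes were the most uneven group, with 4 of 6 past the threshold. RRM2, the regulated subunit of ribonucleotide reductase, had 6.57, 9.15 and 9.998 at 24 h (lowest, median, highest), against 9.10, 10.15 and 10.72 at 12 h, a difference of -1.25 ± 0.71 (adjusted p = 0.0059). RRM1, the large subunit of the same enzyme, differed by -0.35 ± 0.23 (adjusted p = 0.044). UNG, which cuts uracil out of DNA, differed by -0.76 ± 0.47, and TYMS, thymidylate synthase, by -0.58 ± 0.42 (adjusted p = 0.0439). TK1, thymidine kinase, had 9.14, 10.91 and 11.22 at 24 h, against 10.56, 10.99 and 11.27 at 12 h. The γ-ray run of 09C gave a TK1 difference of -2.04, the next lowest run gave -0.62, and the 56Fe and 28Si runs of 09C lay above 0. DUT, which destroys dUTP, was lower at 24 h in 6 of 9 runs, at 8.62 to 10.68 against 10.18 to 10.76 at 12 h.

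All 6 histone and chromatin assembly genes and all 5 DNA methylation and silencing genes fell. CHAF1A and CHAF1B, subunits of the assembly factor CAF-1, differed by -1.02 ± 0.45 and -0.87 ± 0.40 (SD, n = 9). ATAD2, a bromodomain ATPase, differed by -0.99 ± 0.45, the histone chaperone NASP by -0.69 ± 0.43, SLBP, which binds the stem-loop of histone mRNAs, by -0.66 ± 0.45, and CASP8AP2, a factor of histone mRNA processing, by -0.41 ± 0.27. UHRF1, which brings the maintenance methyltransferase DNMT1 to newly copied DNA, had 8.64, 9.98 and 11.29 at 24 h, against 10.69, 11.33 and 11.70 at 12 h, a difference of -1.19 ± 0.70. DNMT1 itself differed by -0.80 ± 0.51, the remodeller HELLS by -0.84 ± 0.40 and its partner CDCA7 by -0.96 ± 0.59. EZH2, the Polycomb histone methyltransferase, had 7.07, 7.79 and 8.04 at 24 h, against 7.78, 8.07 and 8.58 at 12 h, and differed by -0.47 ± 0.24 (adjusted p = 0.00933). USP1, which takes ubiquitin off PCNA and FANCD2, had 9.07, 9.74 and 10.39 at 24 h, against 9.84, 10.31 and 10.64 at 12 h, and differed by -0.62 ± 0.37 (adjusted p = 0.00798). EZH2 and USP1 were lower at 24 h in 8 of 9 runs each.

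**Figure D2:**
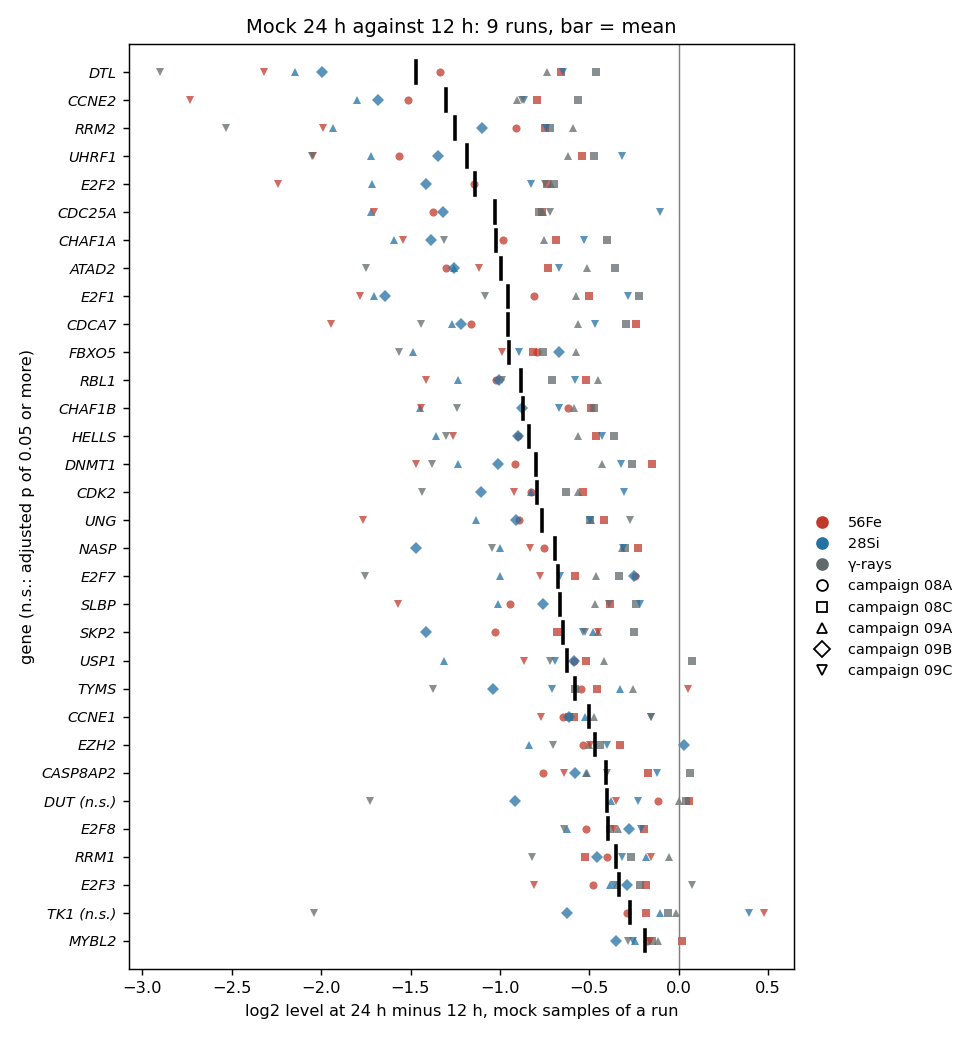
Log2 level at 24 h minus 12 h in the mock samples of each run (points; colour for the radiation of the run, symbol for the campaign), with the mean of 9 runs as a bar, for the 32 genes in order of the mean. DTL has the lowest mean (-1.47) and MYBL2 the highest (-0.19); TK1 and DUT, marked n.s., did not pass the test.

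Irradiated cells showed the fall as well, in a comparison added after the data were seen. With the doses of a run averaged, 25 of the 32 genes were lower at 24 h than at 12 h in irradiated samples (limma, run as a block, adjusted p under 0.05), against 5.84% of all probes that fell in that comparison. The median difference of the 32 genes was -0.68, and the median within a run lay between -1.10 and -0.26 in the 9 runs.

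The rise to 12 h was less even between runs. At 12 h over 1 h 31 of 32 differences lay above 0 with a median of 0.51, and 7 genes rose (E2F2, E2F8, RBL1, FBXO5, NASP, DNMT1 and HELLS), against 2.79% of all probes. The γ-ray run of 09C went the other way, with a median difference of -0.56 and 1 gene above 0, while the other 8 run medians lay between 0.13 and 1.45. Without that run 25 of the 32 genes rose, and without any 1 of 6 other runs 1 or 2 did. The shares of all probes that rose in those fits are not given here. In steps, 5 genes rose at 4 h over 1 h (3.64% of all probes did), E2F8 rose and E2F3 fell at 12 h over 4 h (2.97% and 2.9% of all probes), 3 genes, CDC25A, E2F3 and UNG, were lower at 24 h than at 1 h (1.72% of all probes), and none differed between 1 h and the reference (0.546% of all probes).

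Among the 7 genes that rose by 12 h, FBXO5 had 10.25, 10.91 and 11.28 at 12 h (lowest, median, highest), against 8.76, 10.12 and 10.97 at 1 h, a difference of 0.83 (adjusted p = 0.0294). E2F2 had 6.92, 8.08 and 8.71 at 12 h, against 6.53, 7.18 and 7.805 at 1 h, a difference of 0.71 (adjusted p = 0.0318). The ranges of the 2 times overlapped for each of the 7 genes. DNMT1 had 11.67, 12.37 and 12.54 at 12 h, against 10.17, 11.77 and 12.26 at 1 h (difference of 0.64), and HELLS had 7.79, 8.12 and 8.54, against 6.79, 7.61 and 8.42 (0.60). NASP had 8.37, 8.68 and 8.93 at 12 h, against 7.15, 8.22 and 8.70 at 1 h (0.57), and RBL1 had 7.53, 8.17 and 8.63, against 6.91, 7.72 and 8.02 (0.55). E2F8 had 6.84, 7.14 and 7.51 at 12 h, against 6.31, 6.66 and 7.08 at 1 h (0.56).

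The 5 genes that rose by 4 h were CDC25A, SLBP, E2F2, CCNE1 and E2F3. CDC25A averaged 9.57 ± 0.32 at 4 h and 8.77 ± 0.33 at 1 h (SD, n = 9; adjusted p = 0.00698), and SLBP averaged 10.23 ± 0.22 at 4 h and 9.66 ± 0.30 at 1 h (adjusted p = 0.0101). CCNE1 averaged 7.19 ± 0.09 at 4 h and 6.86 ± 0.11 at 1 h, E2F2 7.91 ± 0.43 and 7.19 ± 0.35, and E2F3 10.53 ± 0.32 and 10.23 ± 0.16. E2F8 rose between 4 and 12 h, with 7.19 ± 0.21 at 12 h and 6.77 ± 0.24 at 4 h (adjusted p = 0.0035).

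The genes kept time with one another. Over the 36 mock samples, after the mean of each run was taken out, the Pearson correlation of a gene with the mean of the other 31 ranged from 0.49 for TK1 to 0.98 for UHRF1 with a median of 0.88, and the median over all tested probes was -0.00087. These points share runs and arrays. The 10 other probes whose course was most like the mean of the 32 genes had correlations of 0.97 to 0.98, and 9 have a symbol, EXO1, RFC3, MCM10, MCM7, TFDP1, DSCC1, DDIAS, FEN1 and CENPO. In a list of 38 replication origin and fork genes 33 fell at 24 h against 12 h and none rose, with a median of -0.73. In a list of 30 G2/M genes none fell and 1 rose, with a median of -0.17, and of 7 basal epithelial markers tested 3 rose, against 5.92% of all probes that rose. Of 3 leukocyte markers tested 1 rose at 24 h against 12 h. At 12 h against 1 h 1 leukocyte and 1 basal marker fell, where 557 of 24350 probes did. The part of those markers in the fall was not tested. Of 23 RB pathway regulators tested 3 rose and 5 fell. CDK4 (whether its probe also reads the transgene was not tested) fell by 0.29 on the log2 scale (adjusted p = 0.00901) and CDK6 by 0.29 (adjusted p = 0.0332). CCND1 differed by -0.22 (adjusted p = 0.0779), CDKN1A by 0.41 (adjusted p = 0.118) and CDKN1B, which encodes p27, by 0.24 (adjusted p = 0.227). The lists were not chosen independently of earlier results on these data.

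The effect of radiation on these genes was small beside that time course. The response was the log2 ratio of irradiated to mock cells of the same run and time, averaged over both doses. At 1 h none of the 32 genes changed over the 9 runs, nor did any probe (0% of 24350). At 4 h 1 gene changed, CDCA7, which was lower after radiation, against 0.0534% of all probes (13 probes, 9 higher and 4 lower). At 12 h and 24 h none of the 32 changed, against 0.0945% and 0.0123% of all probes. At an unadjusted p under 0.05 2, 13, 12 and 5 of the 32 genes were lower at 1, 4, 12 and 24 h and none was higher, against 1.86%, 2.88%, 4.35% and 2.75% of all probes that were lower. The median response of the 32 genes was -0.02, -0.09, -0.11 and -0.06 at 1, 4, 12 and 24 h, with 20, 27, 30 and 23 of the 32 below 0, where the medians over all probes lay between -0.000642 and -0.000244. The run medians at 4 h averaged -0.09 ± 0.08 and lay below 0 in 7 of 9 runs, and those at 12 h averaged -0.10 ± 0.12, also below 0 in 7 of 9 (SD, n = 9).

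CDKN1A shows what the array registered of the damage response in the same samples. Its response at 4 h was 0.61 ± 0.07 (SD, n = 9; adjusted p = 4.82e-09), from 0.50 to 0.70 in the runs and above 0 in 9 of 9. At 1, 12 and 24 h it was 0.15 ± 0.18, 0.18 ± 0.18 and 0.21 ± 0.19 (adjusted p = 1, 0.158 and 0.209). CDKN1B, CCND1, CDK4 and CDK6 had responses between -0.10 and 0.12 at all 4 times with no call.

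CDCA7 carries the one call among the 32 genes. In the 56Fe runs its signal 4 h after 1 Gy was 10.47 (08A), 11.10 (08C) and 10.53 (09C) and after 0.5 Gy 10.97, 11.44 and 11.25, against 11.36, 11.87 and 11.53 in mock cells. Both doses lay below mock in all 3 runs. In the 28Si runs it was 9.70 (09A), 10.61 (09B) and 10.78 (09C) after 1 Gy and 10.27, 10.61 and 10.77 after 0.5 Gy, against 10.49, 10.68 and 11.12 in mock cells. In the γ-ray runs it was 11.08 (08C), 10.68 (09A) and 10.80 (09C) after 3 Gy and 11.25, 10.72 and 10.90 after 1 Gy, against 11.26, 10.79 and 11.10 in mock cells. The log2 response was below 0 in 9 of 9 runs, from -0.64 to -0.07, with a mean of -0.36 ± 0.24 (SD, n = 9; adjusted p = 0.0192). Leaving out 1 run kept the response between -0.40 and -0.33, but its adjusted p rose above 0.05 without 56Fe 08C, γ-ray 08C, 28Si 09A, γ-ray 09A, 28Si 09C or γ-ray 09C (0.0681 to 0.11). With the lower doses alone the response was -0.23 (adjusted p = 0.851). Another CDCA7 probe gave -0.02, but its mean log2 signal of 6.26 lay near the median of all probes (6.23). The probe used had a mean of 10.67.

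DTL, E2F2 and SLBP followed CDCA7 in the order of adjusted p at 4 h without passing. DTL stood at -0.35 ± 0.26 (adjusted p = 0.144), below 0 in 9 of 9 runs, E2F2 at -0.29 ± 0.30 (adjusted p = 0.181), below 0 in 8, and SLBP at -0.16 ± 0.19 (adjusted p = 0.242), below 0 in 7. The smallest responses at 4 h were MYBL2 at -0.002 ± 0.13, E2F3 at -0.01 ± 0.16 and E2F7 at 0.02 ± 0.29. At 12 h the lowest was E2F1 at -0.23 ± 0.19 (adjusted p = 0.191), below 0 in 8 of 9 runs, and DUT at -0.21 ± 0.14 was below 0 in 9 of 9 (adjusted p = 0.0719). Without the 28Si run of 09B DUT passed the threshold at 12 h.

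E2F1, EZH2, CDC25A, RBL1 and USP1 belong to the paper's signature, chosen on these same samples to tell the radiations apart. Their direction here is therefore not independent of that choice. The shared response averages the radiations, so it does not measure what the signature was chosen for. At 4 h E2F1 stood at -0.18 ± 0.26, below 0 in 7 of 9 runs (adjusted p = 0.877). EZH2 stood at -0.11 ± 0.19, CDC25A at -0.12 ± 0.29, RBL1 at -0.09 ± 0.13 and USP1 at -0.06 ± 0.22, below 0 in 7, 5, 6 and 6 of 9 runs. EZH2 was lower by 0.21 at 1 h (adjusted p = 1), below 0 in 8 of 9 runs. None of the 5 passed in the shared response at any time.

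**Figure D3:**
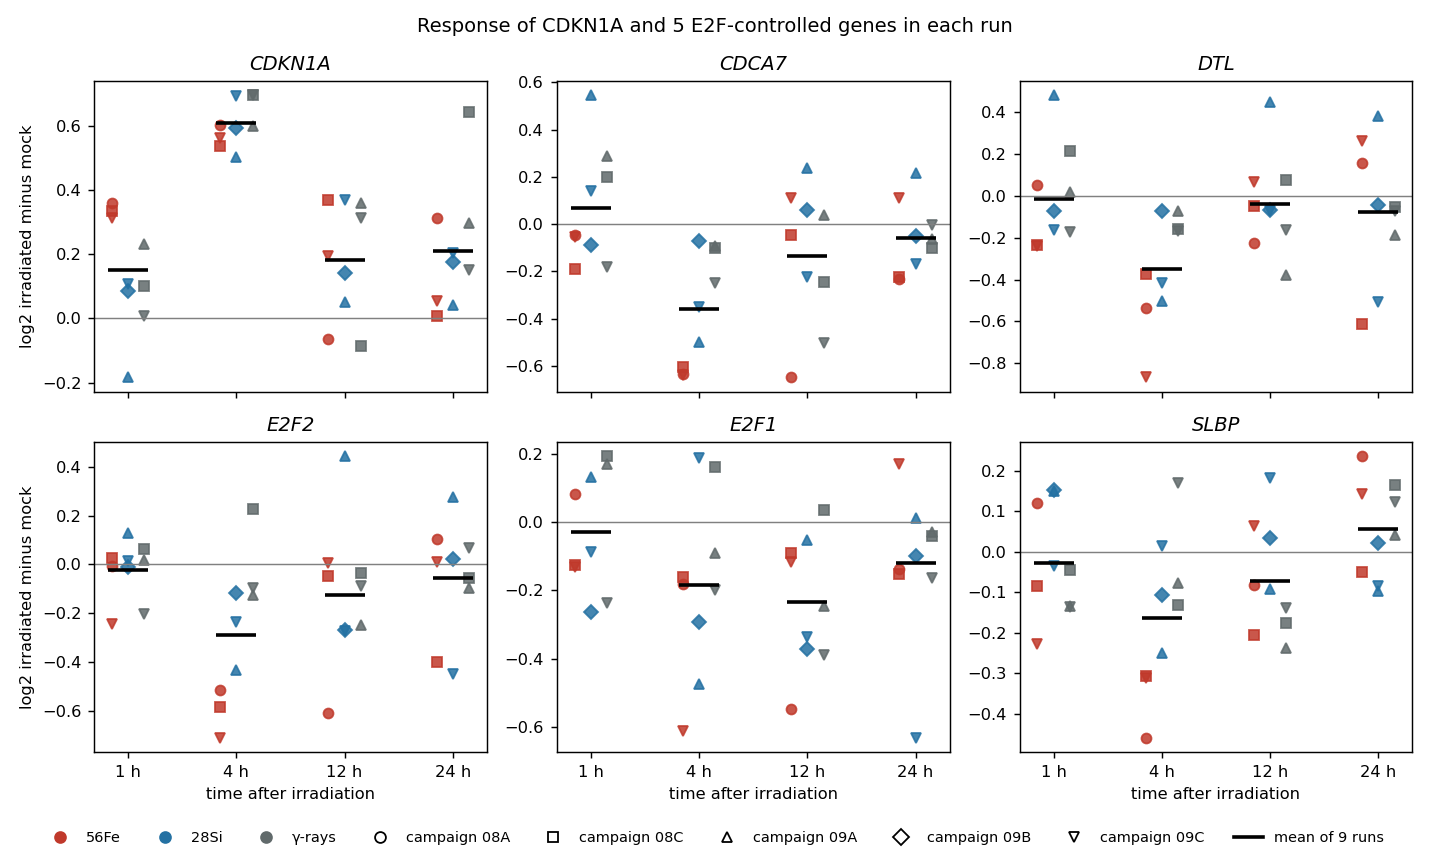
Log2 ratio of irradiated to mock cells, both doses averaged, in each run at 1, 4, 12 and 24 h for CDKN1A and 5 E2F-controlled genes (colour for the radiation, symbol for the campaign, bar for the mean of 9 runs; the vertical scales differ). At 4 h CDKN1A lies between 0.50 and 0.70, and CDCA7 and DTL lie below 0 in each run.

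By radiation, none of the 32 genes changed in any of the 12 combinations of 3 radiations and 4 times. Few probes changed at all, 0.164% after 28Si at 12 h, 0.0123% after 56Fe at 24 h, 0.00411% each after 56Fe at 4 h, 28Si at 4 h and γ-rays at 1 and 4 h, and 0% in the other 6. At 4 h the median response of the 32 genes stood at -0.16 in the 56Fe arm, -0.12 in the 28Si arm and 0.01 in the γ-ray arm, with 25, 27 and 15 of 32 below 0. At 12 h it was -0.12, -0.01 and -0.19, with 32, 17 and 31 of 32 below 0. The 56Fe value at 12 h came mostly from run 08A, which had only the 1 Gy sample at that time: the run medians were -0.30 in 08A, -0.05 in 08C and 0.01 in 09C, with 31, 26 and 13 of 32 genes below 0. CDCA7 (-0.63, adjusted p = 0.0612), E2F2 (-0.60, adjusted p = 0.0815) and SLBP (-0.36, adjusted p = 0.0815) came nearest after 56Fe at 4 h. E2F2 stood at -0.51, -0.59 and -0.71 in the 3 56Fe runs, at -0.43, -0.12 and -0.23 in the 28Si runs, and at 0.23, -0.13 and -0.10 in the γ-ray runs. After γ-rays at 12 h EZH2 (-0.34, adjusted p = 0.264) and FBXO5 (-0.33, adjusted p = 0.27) were lowest. The difference between the radiations was tested itself, and none of the 32 genes, nor any other probe (0%), differed at any time or over the 4 times together. At 4 h 6 of the 32 had an unadjusted p under 0.05, against 1271 of 24350 probes. The 6 were E2F2, SLBP, NASP, CDCA7, EZH2 and CDC25A, with adjusted p = 0.929 for each. The doses of the ions and the γ-rays differ, and 1 Gy was the dose they shared. Campaign 09C holds all 3 radiations, and there the CDCA7 response at 4 h was -0.64 for 56Fe, -0.35 for 28Si and -0.25 for γ-rays.

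**Figure D4:**
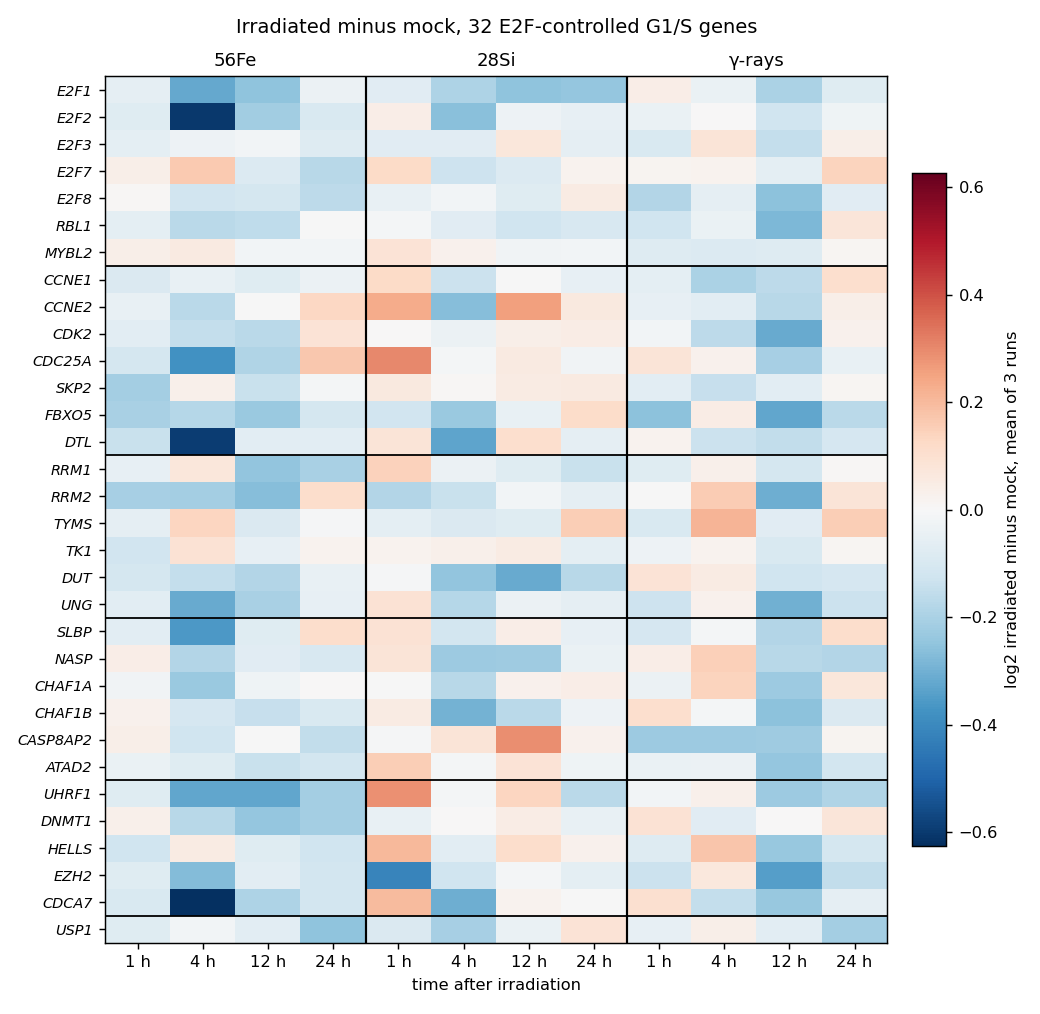
Log2 ratio of irradiated to mock cells, both doses and 3 runs averaged, for each of the 32 genes (rows, parted by role) and each radiation and time (columns). The lowest cells are CDCA7, E2F2 and DTL after 56Fe at 4 h (-0.63, -0.60 and -0.59), and the γ-ray column at 12 h lies below 0 for 31 of 32 genes.

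The higher dose of each radiation was compared with the lower within runs. At 24 h after 56Fe DNMT1 and UHRF1 were lower after 1 Gy than after 0.5 Gy, 2 of 32 genes, against 2.96% of all probes that were lower. DNMT1 stood at 11.23 (08A), 10.55 (08C) and 11.23 (09C) after 1 Gy, against 12.10, 12.24 and 11.16 after 0.5 Gy, and mock cells had 11.62, 12.33 and 10.94. UHRF1 stood at 9.60, 9.33 and 9.91 after 1 Gy, against 10.59, 10.62 and 9.60 after 0.5 Gy, and mock cells had 9.98, 10.83 and 9.65. In both genes runs 08A and 08C showed the difference and run 09C lay on the other side of 0, by 0.07 in DNMT1 and 0.32 in UHRF1. The mean differences were -0.83 for DNMT1 (SE 0.21, adjusted p = 0.0238) and -0.65 for UHRF1 (SE 0.19, adjusted p = 0.0451). Without 09C 11 of the 32 genes passed in this comparison, without 08C none did, and without 08A only DUT did, with a higher level after 1 Gy. For these fits the shares of all probes are not given here. Without 08C DNMT1 stood at -0.40 and UHRF1 at -0.34 (adjusted p = 0.999 each), and without 08A at -0.81 (adjusted p = 0.0647) and -0.49 (adjusted p = 0.26). UHRF1 also missed the threshold without γ-ray 08C, 28Si 09A, γ-ray 09A or 28Si 09B (adjusted p = 0.0589 to 0.0699), runs that enter only through the shared variance, and passed in 5 of 15 alternatives, against 11 of 15 for DNMT1. At the background share about 1 gene of 32 would pass.

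At 24 h after γ-rays 1 of the 32 genes, UNG, was lower after 3 Gy than after 1 Gy, against 2.24% of all probes. UNG stood at 9.86 (08C), 9.81 (09A) and 9.27 (09C) after 3 Gy, against 9.998, 10.03 and 10.13 after 1 Gy, and mock cells had 10.04, 9.91 and 9.996. All 3 runs were lower at the higher dose, by -0.41 on average (SE 0.11, adjusted p = 0.0358), with most of it in 09C. Without γ-ray 09C the difference was -0.18 (adjusted p = 0.598), and without γ-ray 08C -0.54 (adjusted p = 0.0672). The call was also lost, with the difference the same, without 28Si 09A (adjusted p = 0.054) or 28Si 09B (adjusted p = 0.0513), and UNG passed in 6 of 15 alternatives. With the 3 UNG probes averaged it was -0.18 (adjusted p = 0.183). FBXO5 (-0.46, adjusted p = 0.0515), SKP2 (-0.42, adjusted p = 0.0572) and USP1 (-0.48, adjusted p = 0.0797) followed, and 27 of 32 differences lay below 0 with a median of -0.18. E2F2 (0.00044), DTL (0.0014) and CCNE1 (0.0036) differed least. Without γ-ray 09A 4 genes passed, UNG, FBXO5, SKP2 and USP1, and the share of all probes in that fit is not given here.

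None of the 32 genes differed between doses in the other 10 comparisons, among them 28Si at 12 h, where 2.45% of all probes did (0% in the other 9), or over the 4 times together, where 0% of probes differed between doses of 56Fe, 0.678% of 28Si and 0.821% of γ-rays. At 4 h after 56Fe 31 of the 32 differences lay below 0 with a median of -0.20, and over all probes 47% did. Run 09C carried most of this, with a median of -0.49 and 31 of 32 below 0, where 08A had -0.10 and 20 below 0 and 08C had -0.05 and 21 below 0. CDCA7 had the lowest, -0.52 (adjusted p = 1). The run medians of the dose difference at 4 h lay below 0 in all 9 runs, from -0.49 to -0.02, and those at 24 h in 7 of 9, from -0.41 to 0.14.

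**Figure D5:**
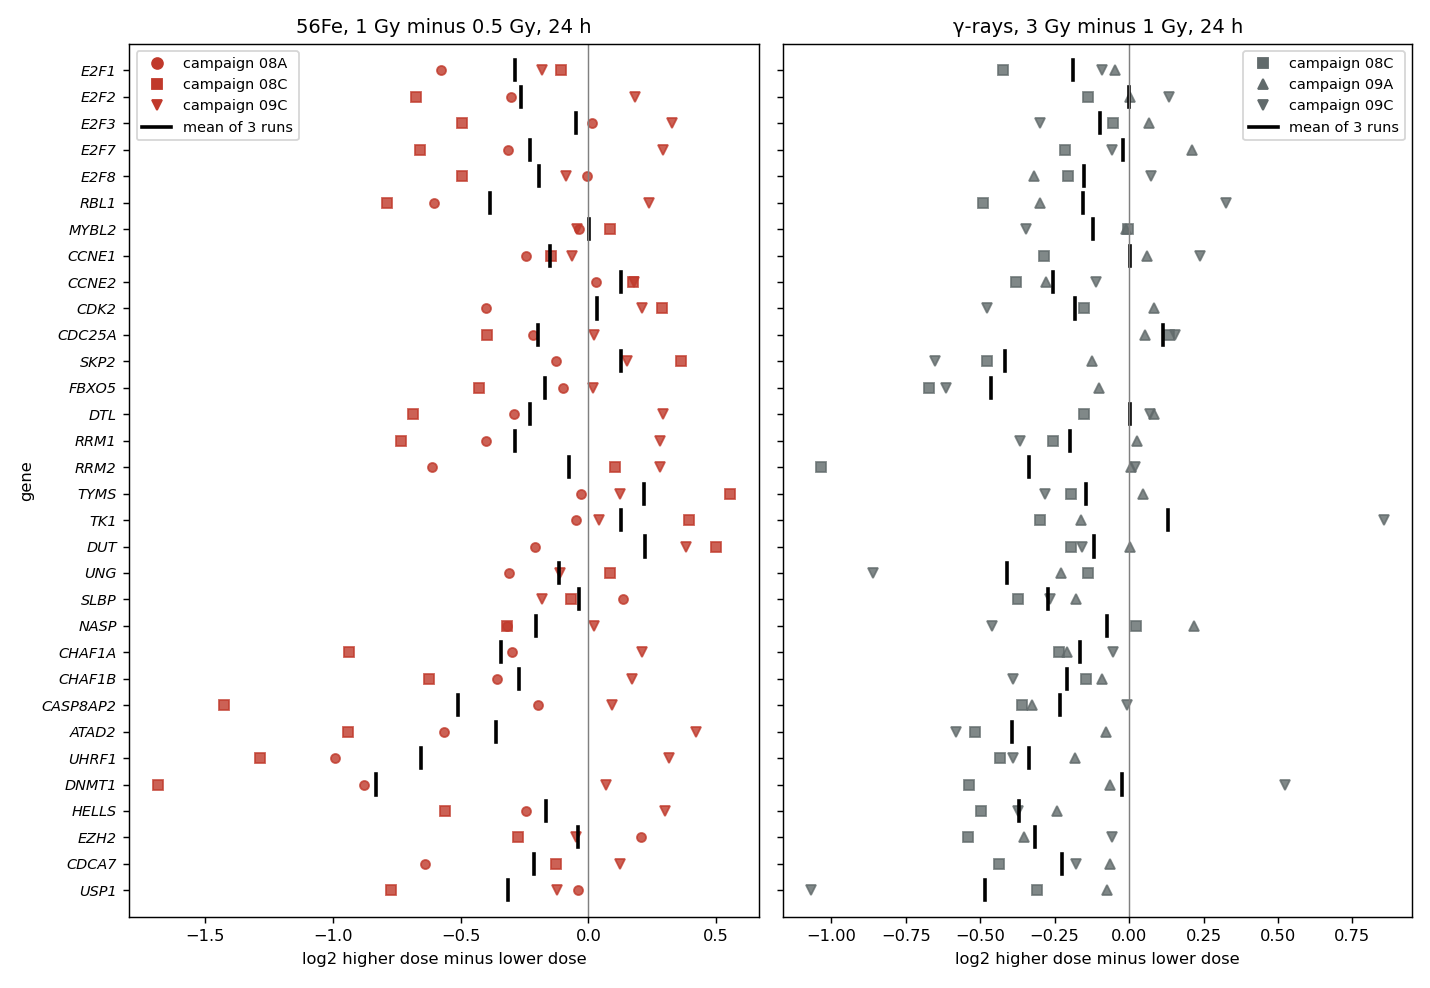
Log2 difference between the higher and the lower dose at 24 h for the 32 genes, 1 Gy minus 0.5 Gy of 56Fe on the left and 3 Gy minus 1 Gy of γ-rays on the right (points for the 3 runs by campaign, bar for their mean). DNMT1 and UHRF1 of 56Fe and UNG of γ-rays passed the test; the median of the 32 genes after 56Fe is -0.27 in 08A, -0.41 in 08C and 0.14 in 09C.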

How the data were processed

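The authors deposited BeadStudio mean bead intensity values of Illumina HumanWG-6 V2 arrays, not normalized, and log2 values after their own background subtraction (MBCB) and quantile normalization. No detection p-value was used. From the intensities, normexp background correction with an offset of 50, quantile normalization and log2 were applied, technical repeats were averaged, and probes with a mean above the median (6.23) were tested (limma 3.58.1, R 4.3.3). The deposited log2 values served as an alternative. Responses were differences from mock of the same run and time, with 24 residual degrees of freedom, and mock times were compared with run as a block. After 56Fe in 08A at 12 h no 0.5 Gy sample was analysed, so the 1 Gy sample stands for that response. Irradiated and mock samples of a run deviated together (median r 0.72, over 0.1 in 36 of 36 pairs), and the campaign in the labels gives the pairing. Adjusted p-values are Benjamini-Hochberg over all 24350 probes.

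All 32 genes were accounted for. The rule was to give values over the runs for genes past the threshold, the 3 largest and 3 smallest in a comparison with a call, and E2F1, EZH2, CDC25A, USP1 and RBL1. Comparisons over 3 runs list each run, and those over 9 runs give the lowest, median and highest or the mean and SD. Outside the set, CDKN1A, CDKN1B, CCND1, CDK4, CDK6 and the 10 most similar probes were named. The members and lists were chosen with earlier results of these data known.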

Additional observations from a re-analysis of the deposited data

Results flagged for a closer look

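In the mock cells of the γ-ray run of 09C, 2 genes lay far from the other 8 runs in the difference between 24 and 12 h. TK1 stood at -2.04 there and at -0.62 in the next run, a gap of 0.562 of the whole range. E2F7 stood at -1.75 there and at -0.998 in the next run, a gap of 0.501 of the range. Chance alone flags some groups by this measure, at a rate of 0.05.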

How the results depend on the processing

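When arrays were scaled to one median, 16 of the 32 genes changed over mock times, 9 were lower at 24 h than at 12 h, 1 was higher at 12 h than at 1 h, 0 changed after radiation at 4 h and 0 differed between doses. With the deposited log2 values the last 3 counts were 2, 0 and 0. With no filter 2 genes rose to 12 h and 1 differed between doses. With trended and robust variances 0 changed at 4 h and 1 differed between doses, and 0 changed at 4 h with all probes of a gene averaged, with chip as a block or with the lower dose alone. Without the replicate block of the paired runs 1 gene rose to 12 h and 0 changed at 4 h. The lower dose alone gave 1 call by radiation (EZH2, 28Si, 1 h), and the higher dose alone 1 (CDCA7, 56Fe, 4 h), 1 at 12 h (DUT) and a median of -0.18 at 4 h. With the reference in place of mock as control, 4 genes changed at 4 h and 2 at 12 h, the medians were 0.29, 0.41 and -0.29 at 4, 12 and 24 h, and the 4 h values of CDCA7 (0.31), E2F1 (0.24), EZH2 (0.31), CDC25A (0.84) and RBL1 (0.20) changed sign; this control leaves the mock time course in the ratio. The cause of the other changes was not tested. The shares of all probes in these settings are not given here.

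Leaving out 1 run gave 23 to 31 genes over mock times, 25 to 29 at 24 h against 12 h, 1 to 25 at 12 h against 1 h, 0 to 1 at 4 h, 0 to 1 at 12 h, 0 to 2 by radiation and 1 to 14 between doses (5 without γ-ray 09A), and 0 to 0 at 1 h, at 24 h and between radiations. The median response ranged from -0.05 to 0.01 at 1 h, -0.11 to -0.08 at 4 h, -0.14 to -0.07 at 12 h and -0.08 to 0.005 at 24 h. The adjusted p of CDCA7 at 4 h ranged from 0.00414 to 1 over 21 alternatives, 7 of them past the threshold. Counts with 1 run left out stand without the share of all probes in each fit. The number of runs limits the precision.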
